A study of Rattus norvegicus with 3 samples.

Results

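The enzymes that make, use and renew glutathione, and those that remove superoxide and hydrogen peroxide, were followed in tendon stem/progenitor cells (TSPCs) of rats of different postnatal ages. Members were chosen by gene symbol among the probe sets that GEO's platform annotation gives a single symbol. The symbols were those of the glutathione S-transferases, glutathione peroxidases, superoxide dismutases, peroxiredoxins, thioredoxins and their reductases, haem oxygenases and gamma-glutamyl transferases, with *Gclc*, *Gclm*, *Gss*, *Gsr*, *Cat*, *Nqo1* and *Srxn1*. They gave 60 probe sets of 53 genes, out of 31042 probe sets and 14217 genes on the array. The family was singled out with the signals of these same arrays known, so the ratios of its members are a description. Each group was 1 Affymetrix Rat Genome array of cultured Achilles tendon cells: TSPCs-1d, TSPCs-7d and TSPCs-56d, from rats at postnatal day 1, 7 and 56. The labels name no genetic change and no treatment that sets the groups apart, and all 3 were grown in low glucose DMEM with fetal bovine serum and taken at passage 2. Each culture mixed the tendons of at least 2 animals. With 1 array per age there was no replicate, so no ratio has an error and none was tested, and a difference between 2 arrays compares those cultures.

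Glutathione is a small peptide made in 2 steps, by glutamate-cysteine ligase and then glutathione synthetase. Glutathione S-transferases attach it to reactive lipids and foreign compounds, glutathione peroxidases use it to reduce peroxides, and glutathione reductase restores the oxidised form. Superoxide dismutases turn superoxide into hydrogen peroxide, which catalase, the glutathione peroxidases and the thioredoxin-dependent peroxiredoxins break down. Many of these genes are driven by the transcription factor Nrf2 through the antioxidant response element in their promoters. Tendon cells live in a matrix with few vessels.

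Values are the deposited linear signals, in intensity units. A ratio of signals over 2 or under 0.5 between 2 arrays was counted as a difference, as in the methods of the study. A gene with several probe sets is given by the one that was brightest on average. The arrays are named by the age of the rats below (day 1, day 7 and day 56). A signal under the 25th percentile of all signals (48.9) is called dim, and a ratio with a dim signal is given as a lower bound. Signals of different probe sets are not compared as amounts of RNA, since probes bind with different strength, and a sum over a marker list is weighted by its brighter probe sets. RNA came from whole cultures, so fewer cells of a type and less RNA per cell cannot be told apart.

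The promoters of 5 members are shown, of *Gpx3*, *Gsta4*, *Mgst3* and *Sod2*, which passed 2-fold, and of *Gclm*, a textbook Nrf2 target. RefSeq promoters of the GRCr8 build were available for 44 of the 53 genes, and the 250 bases before the start are printed 5′ to 3′ on the strand of the gene. Capitals mark the letters of the antioxidant response element (TGACNNNGC, either strand) and of the GC box (GGGCGG, either strand). The windows are chr10:39529085-39529334 (+) for *Gpx3*, chr8:87947015-87947264 (+) for *Gsta4*, chr13:82080296-82080545 (−) for *Mgst3*, chr1:50050169-50050418 (−) for *Sod2* and chr2:213031885-213032134 (+) for *Gclm*.
Gpx3: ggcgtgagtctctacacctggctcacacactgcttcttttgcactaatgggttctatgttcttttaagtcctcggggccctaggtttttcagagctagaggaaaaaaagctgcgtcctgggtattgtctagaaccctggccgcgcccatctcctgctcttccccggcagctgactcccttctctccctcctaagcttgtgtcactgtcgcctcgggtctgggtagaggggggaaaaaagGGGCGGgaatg
Gsta4: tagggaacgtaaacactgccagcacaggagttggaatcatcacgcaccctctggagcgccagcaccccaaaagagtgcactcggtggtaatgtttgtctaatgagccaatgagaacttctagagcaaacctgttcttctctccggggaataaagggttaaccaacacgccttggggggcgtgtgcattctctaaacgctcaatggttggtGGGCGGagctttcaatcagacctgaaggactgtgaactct
Mgst3: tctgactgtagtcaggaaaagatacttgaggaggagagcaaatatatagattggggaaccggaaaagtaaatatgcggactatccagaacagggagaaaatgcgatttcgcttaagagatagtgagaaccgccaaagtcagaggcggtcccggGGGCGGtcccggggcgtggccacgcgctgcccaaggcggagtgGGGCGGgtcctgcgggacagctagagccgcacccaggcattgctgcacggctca
Sod2: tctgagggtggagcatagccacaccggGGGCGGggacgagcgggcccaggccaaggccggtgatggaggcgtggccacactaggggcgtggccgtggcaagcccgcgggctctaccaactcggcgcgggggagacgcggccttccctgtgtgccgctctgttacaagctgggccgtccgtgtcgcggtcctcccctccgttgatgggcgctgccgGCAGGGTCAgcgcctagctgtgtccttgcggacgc
Gclm: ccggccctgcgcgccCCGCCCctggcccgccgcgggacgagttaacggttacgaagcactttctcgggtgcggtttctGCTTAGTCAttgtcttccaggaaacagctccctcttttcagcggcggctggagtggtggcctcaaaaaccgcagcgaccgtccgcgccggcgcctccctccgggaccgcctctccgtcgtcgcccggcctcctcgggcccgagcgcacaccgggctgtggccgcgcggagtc

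The element's letters were in the *Sod2* window, with the first base 35 bases before the start (position -35), and in the *Gclm* window at position -172, both as the reverse complement. They were not in the windows of *Gpx3*, *Gsta4* and *Mgst3*. The GC box was in all 5 windows, once in each but *Mgst3*, which held it 2 times. Over the family, 10 of 44 genes (22.7%) had the element, against 13.0% of the 11700 genes on the array that the promoter table holds. Counted by promoter, since some genes have several, 10 of the 50 promoters of the 44 genes had it, against 10.1% of the table's 33469 promoters. The 10 genes were *Gclm*, *Gpx2*, *Gsta3*, *Gstm5*, *Gstm7*, *Gstp1*, *Gstz1*, *Hmox2*, *Sod2* and *Txnrd1*. In *Gstp1* the element overlapped the letters of an AP-1 site (TGANTCA). The AP-1 letters were found in 4 of 44 genes (9.09%, against 5.35% of the genes on the array and 6.99% of all genes with a promoter). The GC box was found in 31 (70.5%, against 55.3% and 33.5%). A match in such a window is a description of its letters, not a bound site, and of the 6 genes past 2-fold, *Sod3* and *Gstt2* had no promoter in the table.

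The identity of the cultures was checked first. *Col1a1*, the main collagen of tendon, had signals between 14286 and 14736, and *Scx*, the tendon transcription factor scleraxis, between 2255 and 2578. Of the 12 measured tendon markers none was dim on all arrays, and 5 passed 2-fold in some comparison. *Tnmd*, the tendon surface protein tenomodulin, had signals of 543 at day 1, 351 at day 7 and 158 at day 56. The matrix genes *Thbs4* (76.5, 339.6 and 348), *Fmod* (271, 774 and 408) and *Tnc* (5280.4, 7302.5 and 11185) were lowest at day 1. The leukocyte gene *Ptprc* (CD45) was dim on all 3 arrays, 1 of 4 such genes among the 8 haematopoietic and macrophage markers, and 3 of the 5 endothelial markers were dim too. *Dcn*, the matrix proteoglycan decorin, was dim at day 1 and had 49.4 at day 7 and 607 at day 56. The median signal of the arrays was 107 (TSPCs-1d), 108 (TSPCs-7d) and 114 (TSPCs-56d).

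Most of the family was bright and differed by less than 2-fold between the arrays, with a wider spread than genes in general. Of the 53 genes, 44 (83.0%) lay above the median of mean signal, against 66.0% of all genes. *Gpx2*, *Gpx6*, *Gsta3* and *Gstp3* were dim on all 3 arrays, and *Gstm3* and *Gstt3* on at least 1. The highest and lowest of a gene's 3 signals lay within 1.5-fold for 32 genes (60.4%), against 81.5% of all genes. They were more than 2-fold apart for 6 (11.3%), against 6.49% of all genes. These 6 were *Gpx3*, *Sod3*, *Sod2*, *Gsta4*, *Mgst3* and *Gstt2*. The signal was highest at day 56 for 28 genes (52.8%, against 44.2% of all genes), at day 1 for 15 (28.3%, against 27.5%) and at day 7 for 10 (18.9%, against 28.3%). With every array set to a common median, 23 genes (43.4%, against 32.2% of all genes) were highest at day 56. Another 17 (32.1%, against 35.5%) were highest at day 1 and 13 (24.5%, against 32.4%) at day 7. With this scaling 5 genes (9.43%, against 6.46%) were past 2-fold, and 36 (67.9%, against 81.9%) lay within 1.5-fold.

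**Figure D1:**
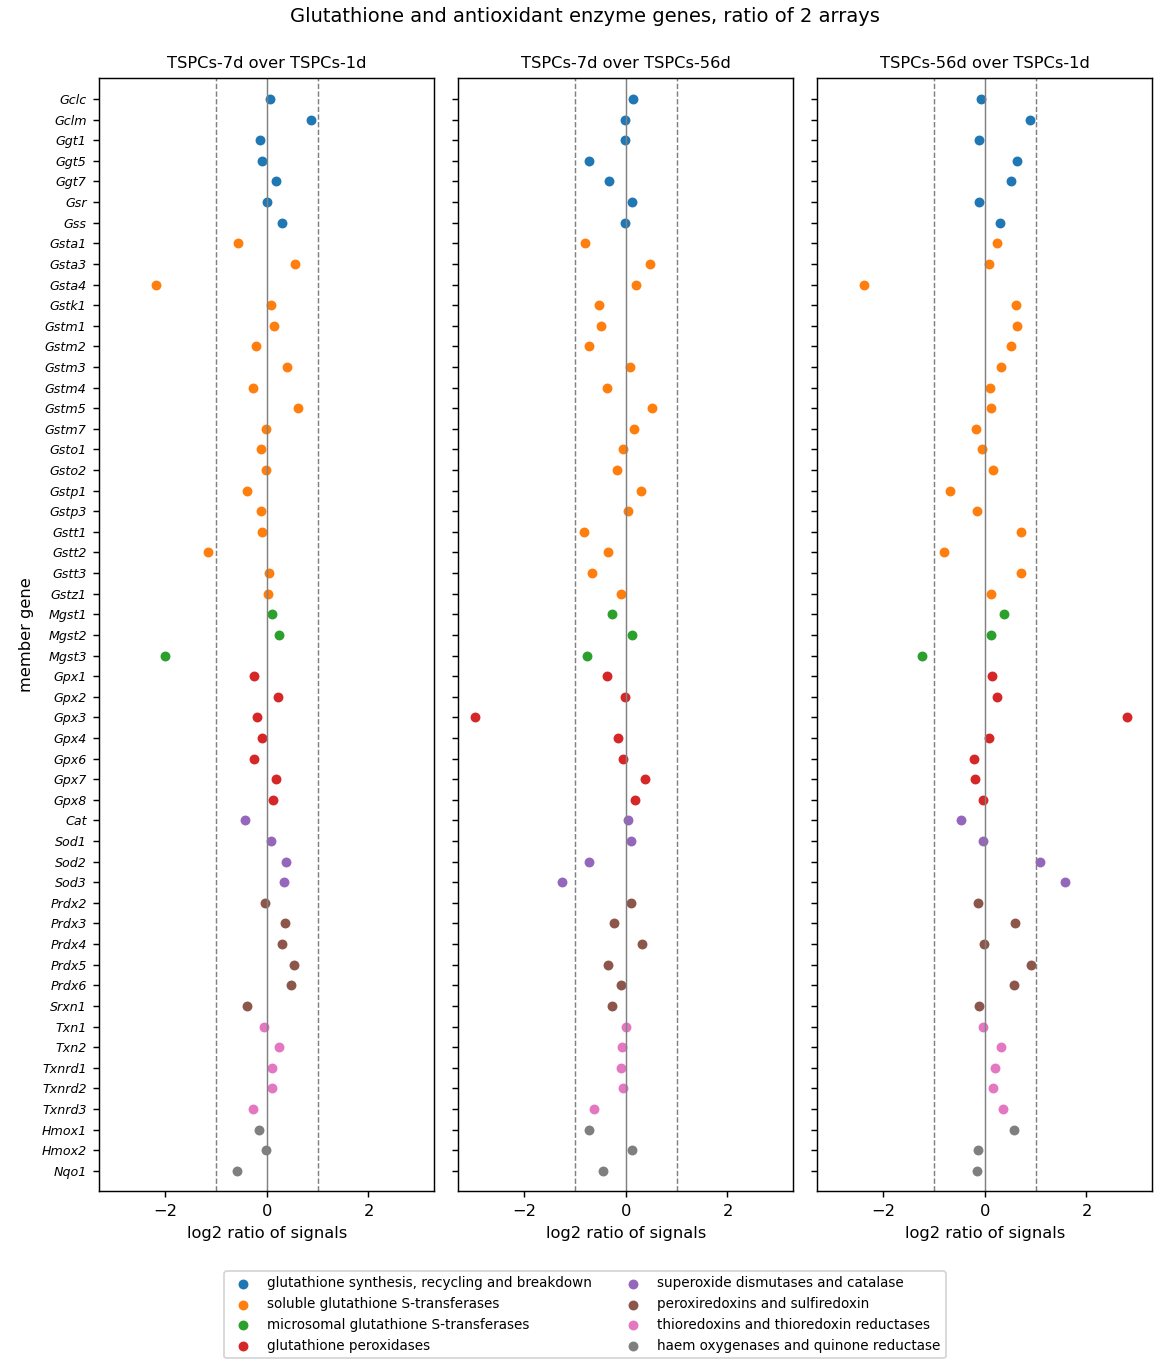
Log2 ratio of the signals of 2 arrays (horizontal axis) for each of the 53 genes (rows), coloured by role, in the 3 comparisons, with dashed lines at 2-fold. Most points lie inside the lines, with *Gsta4* and *Mgst3* far to the left against TSPCs-1d and *Gpx3* and *Sod3* showing the higher signals of TSPCs-56d. *Gpx2*, *Gpx6*, *Gsta3* and *Gstp3* are drawn from dim signals on all arrays. The points of *Gstm3* use a dim signal at day 1, and those of *Gstt3* dim signals at day 1 and day 7.

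The comparison of TSPCs-7d with TSPCs-1d asks what distinguishes the cells at the age that was the centre of the study from newborn cells. None of the 60 probe sets was more than 2-fold higher at day 7, where 1.36% of all probe sets were, and 3 (5.0%) were more than 2-fold lower, where 0.989% were. The 3 were *Gsta4*, *Mgst3* and *Gstt2*, all glutathione S-transferases. The median log2 ratio over the members was 0.03, and over all probe sets 0.01. In TSPCs-7d against TSPCs-56d, 0 probe sets were more than 2-fold higher (1.68% of all) and 2 (3.33%) were more than 2-fold lower (1.31% of all), those of *Gpx3* and *Sod3*, with a median log2 ratio of -0.09 (-0.05 over all). In TSPCs-56d against TSPCs-1d, 3 (5.0%) were higher, *Gpx3*, *Sod2* and *Sod3* (1.52% of all), and 2 (3.33%) were lower, *Gsta4* and *Mgst3* (1.8% of all), with a median of 0.13 (0.05 over all). The 3 comparisons share arrays, so a signal that stands apart on 1 array enters 2 of them.

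**Figure D2:**
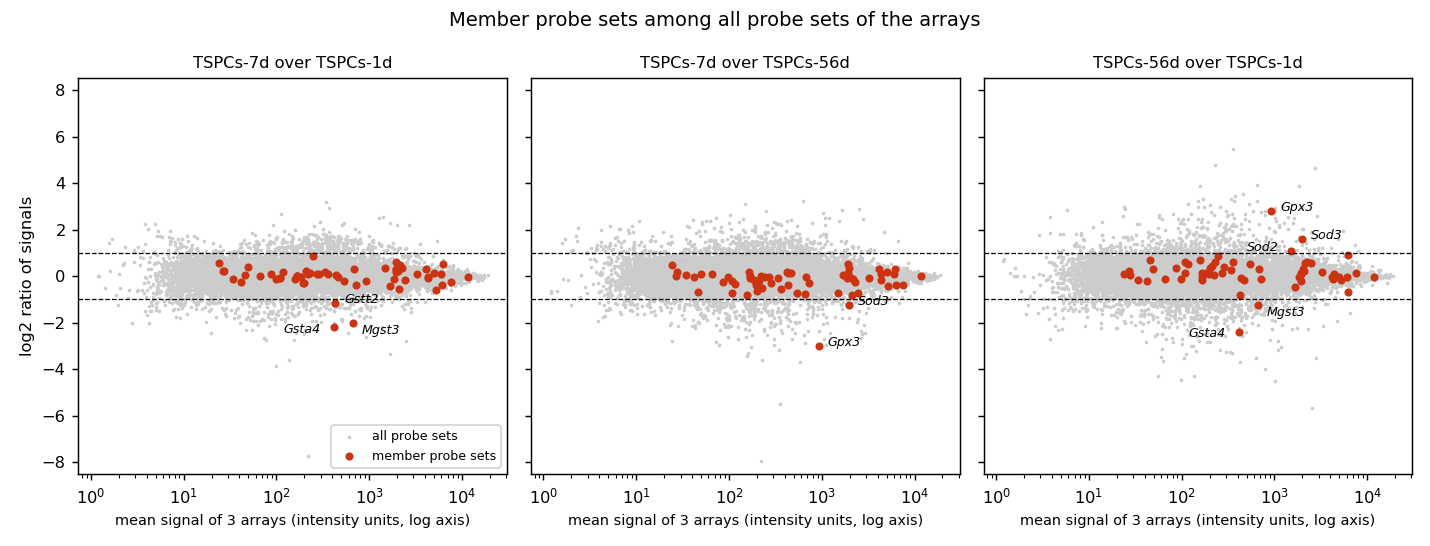
Log2 ratio of signals (vertical axis) against the mean signal of the 3 arrays (horizontal log axis) for all 31042 probe sets (grey) and the 60 member probe sets (red), in the 3 comparisons, with dashed lines at 2-fold. The named members outside the lines have mean signals away from the dim end of the axis.

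A guide to the noise came from genes with exactly 2 probe sets above the median signal, of which there were 1714. The log2 ratios of their 2 probe sets differed by a median of 0.14 for TSPCs-7d against TSPCs-1d, 0.14 for TSPCs-7d against TSPCs-56d and 0.17 for TSPCs-56d against TSPCs-1d. In 90% of them the difference was under 0.39, 0.44 and 0.53 in the same order. Ratios beyond these limits were seen for 12 (22.6%), 15 (28.3%) and 17 (32.1%) of the 53 member genes, against 17.2%, 18.0% and 13.9% of all genes. These counts took ratios with dim signals as they were, for the members and for all genes. Such members were *Gsta3* and *Gstm3* in TSPCs-7d against TSPCs-1d, *Gsta3* and *Gstt3* in TSPCs-7d against TSPCs-56d, and *Gstt3* in TSPCs-56d against TSPCs-1d. The limits came from brighter probe sets. This guide covers the disagreement between probe sets of a gene on the same 2 arrays, and sets a difference of 2 ratios as the limit for 1 ratio. An error shared by the probe sets of an array is not in it. Nor is the spread between cultures, which these data do not give.

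Among the superoxide dismutases and catalase, the extracellular and mitochondrial dismutases passed 2-fold and the cytosolic one and catalase did not. *Sod3*, the extracellular superoxide dismutase bound to the matrix, had signals of 1122 at day 1, 1409.8 at day 7 and 3372 at day 56. TSPCs-56d was thus 3.01-fold above TSPCs-1d and 2.39-fold above TSPCs-7d. *Sod2*, the manganese enzyme of mitochondria, had 1011, 1306 and 2156 in the same order of age, 2.13-fold higher at day 56 than at day 1. Its ratio came just under 2 when the arrays were divided by their medians. The signals of both genes were higher at each later age. *Sod1*, the cytosolic copper-zinc enzyme, gave 5945, 6266 and 5814.5. *Cat*, the peroxisomal catalase, gave 2042, 1515 and 1480.3, highest in the newborn culture.

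Of the 7 glutathione peroxidases, 1 passed 2-fold. *Gpx3*, the secreted form found in plasma and extracellular fluid, had signals of 316 at day 1, 277 at day 7 and 2189 at day 56. The 2 young cultures lay close together, and TSPCs-56d was 6.93-fold above TSPCs-1d and 7.89-fold above TSPCs-7d. Among all 31042 probe sets this ratio ranked 29 from the top for TSPCs-56d against TSPCs-1d and 9 from the bottom for TSPCs-7d against TSPCs-56d. *Gpx1*, the main intracellular form, gave 7712, 6512 and 8485. *Gpx4*, which reduces lipid peroxides within membranes, gave 4349, 4091 and 4579, with a second probe set between 214 and 226. *Gpx7* and *Gpx8*, the peroxidases of the endoplasmic reticulum, gave 1937, 2190.3 and 1698, and 4898, 5353 and 4753, both highest at day 7. *Gpx2*, the form of the gut epithelium, and *Gpx6*, that of the olfactory epithelium, were dim throughout.

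**Figure D3:**
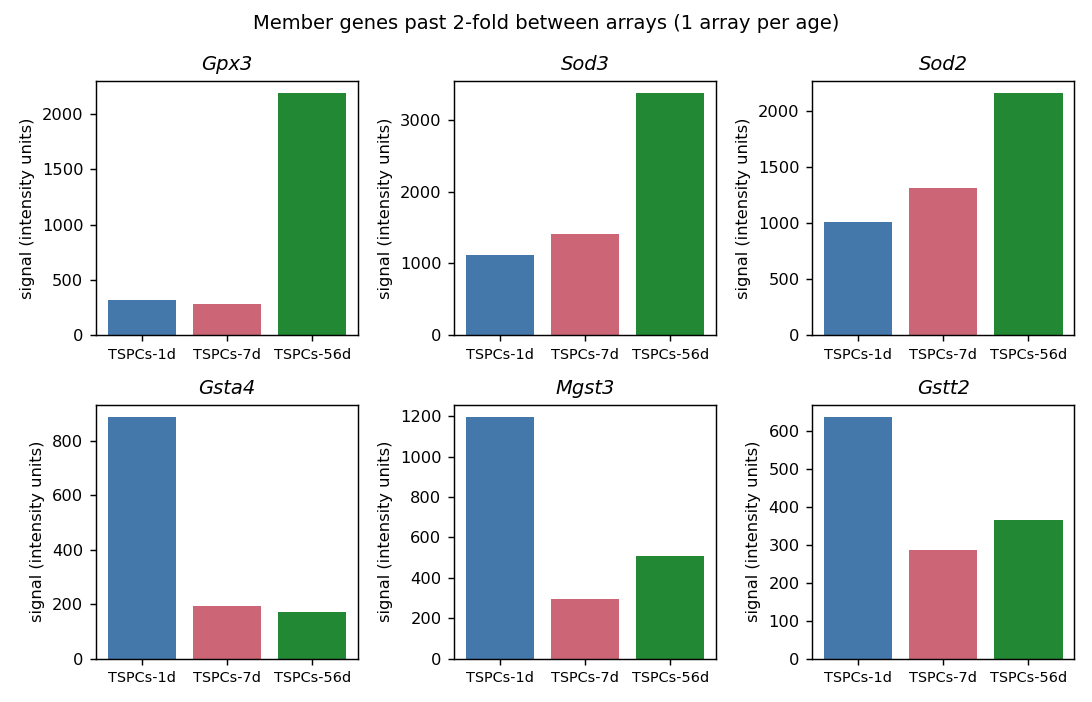
Signal (vertical axis, intensity units, from 0) of the 6 genes past 2-fold on each of the 3 arrays, 1 bar per array with no error bar, since each age had 1 array. *Gpx3*, *Sod3* and *Sod2* are highest at day 56, and *Gsta4*, *Mgst3* and *Gstt2* at day 1.

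Markers of other cells also differed at day 56, where *Gpx3*, *Sod3* and *Sod2* were high. The summed signal of 6 smooth muscle and pericyte markers was 19131 at day 1, 15292 at day 7 and 22714 at day 56, and none was dim on all arrays. Of the 6, smooth muscle myosin *Myh11* alone passed 2-fold between day 56 and day 1, with 2186, 1671 and 5067, and its other probe set gave 109, 152 and 198. *Acta2* and *Pdgfrb* had ratios of 1.03 and 1.00 and *Cspg4* 0.78, and the list's median log2 ratio was 0.02. The sum of 6 skeletal muscle markers, 1 of them dim on all arrays, was 2101, 1191 and 5684. Skeletal actin *Acta1* had 1772, 855 and 5327, and the list's other markers stayed within 2-fold between day 56 and day 1. Of 4 Schwann cell markers 2 were measured, with a sum of 579.9, 593 and 1065, and *S100b* had 529.8, 535 and 1000.4. Of 5 measured cartilage markers, 1 of them dim on all arrays, aggrecan (*Acan*) had 8588, 8224 and 2874, and the list's median log2 ratio of day 56 over day 1 was 0.08. The 5 summed to 8836, 8495 and 3139. The sum of the 8 haematopoietic markers was between 587 and 689 and that of the 5 endothelial ones between 238 and 254. All 6 cycling genes were more than 2-fold higher at day 7 than on both other arrays, with sums of 3705, 9539 and 3452. The part of these differences in the antioxidant signals was not tested.

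The glutathione S-transferases were the largest role, with 18 soluble and 3 microsomal genes, and the genes past 2-fold were highest at day 1. *Gsta4*, which conjugates the lipid peroxidation product hydroxynonenal, had signals of 889 at day 1, 195 at day 7 and 171 at day 56. The 2 older cultures were close to each other, 4.55-fold and 5.21-fold below the newborn one. *Mgst3*, a membrane-bound transferase with peroxidase activity, had 1196, 297 and 506, so that TSPCs-7d was 4.03-fold and TSPCs-56d 2.36-fold lower than TSPCs-1d. In TSPCs-7d against TSPCs-1d, *Gsta4* ranked 17 and *Mgst3* 23 from the bottom of all probe sets. *Gstt2*, of the theta class, had 636, 285 and 366 and was 2.23-fold lower at day 7. Its other probe set gave 107, 101 and 118, a ratio of 0.95, so the difference of *Gstt2* was seen with 1 of its 2 probe sets. Of 6 adipocyte markers, 2 of them dim on all arrays, *Fabp4* (70.6 at day 1 and dim on the other 2 arrays) and *Pparg* (119.5, 117 and 60.3) were highest at day 1, and *Adipoq*, *Plin1*, *Lep* and *Cidec* were highest at day 56, at signals up to 59.4. The 6 summed to 340.0, 290.0 and 268, with a median log2 ratio of 0.22 for day 56 over day 1. The 4 measured erythroid markers, 1 of them dim on all arrays, summed to 522, 404 and 463. Their median log2 ratio for day 56 over day 1 was 0.05. Of these markers *Slc4a1* (272, 163 and 206) was highest at day 1 and *Hbb* (138, 139 and 120) at day 7. *Epb42* and the dim *Alas2* were highest at day 56. The part of the adipocyte and erythroid markers was not tested.

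Within the other classes the order of ages varied. *Gstp1*, the pi class enzyme, was lower at each later age, with 7753 at day 1, 5925 at day 7 and 4814 at day 56 (ratio of TSPCs-56d over TSPCs-1d 0.62). The mu class gene *Gstm5* was highest at day 7 (1604, 2468 and 1736 by age), 1.54-fold above TSPCs-1d. *Gsta1* (2199.9, 1483 and 2600.4) and *Gstm2* (492, 422 and 703) were lowest at day 7. *Gstk1*, *Gstm1* and *Gstt1* were highest at day 56, at 461, 291 and 216, against 301, 188 and 132 at day 1. *Gsto1*, *Gsto2*, *Gstz1*, *Gstm4* and *Gstm7* stayed within 1.5-fold, as did the microsomal *Mgst1* and *Mgst2*, the latter with 1773, 2105 and 1931. *Gstm3* (41.5, 54.7 and 51.8) and *Gstt3* (37.4, 38.4 and 61.4) were near the dim limit. Transferases of 1 class are close in sequence, and how far their probe sets share targets was not tested. The 2 probe sets annotated to *Prdx1* or to *Gsta2* together with a related gene carried several symbols and are not members.

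In the synthesis and recycling of glutathione none of the 7 genes passed 2-fold. *Gclm*, the modifier subunit of glutamate-cysteine ligase, was lower at day 1, with 159 there, 289 at day 7 and 292 at day 56, ratios of 1.82 and 1.84. *Gclc*, the catalytic subunit, gave 436, 458 and 414, and its second probe set stayed between 164 and 168. *Gss*, glutathione synthetase, gave 591, 722 and 730.2, and *Gsr*, glutathione reductase, 67.7, 68.0 and 62.8. The gamma-glutamyl transferases, which cleave glutathione at the cell surface, were represented by *Ggt1* (103, 94.5 and 95.7), *Ggt5* (94.1, 87.9 and 145) and *Ggt7* (98.4, 111 and 141). Of these *Ggt5* and *Ggt7* were highest at day 56. The other probe set of *Ggt5* gave 77.2, 83.2 and 99.3. Its ratio of day 56 over day 1 was 1.29, against 1.54 for the brighter one.

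The peroxiredoxins were bright, and those of the mitochondria were highest at day 56 without reaching 2-fold. *Prdx5*, found in mitochondria and peroxisomes, had 4345 at day 1, 6324 at day 7 and 8114 at day 56, a ratio of 1.87 between the oldest and the youngest culture. *Prdx3*, the mitochondrial form, had 1795, 2299.9 and 2707, and *Prdx6*, which reduces phospholipid peroxides, 1668, 2314 and 2484. All 3 were higher at each later age. *Prdx2* of the cytosol went the other way in small steps (4469, 4378 and 4068), and *Prdx4* of the endoplasmic reticulum was highest at day 7 (3854, 4754 and 3822). *Srxn1*, the sulfiredoxin that restores overoxidised peroxiredoxins, gave 806.5, 616 and 746, and its second probe set 178, 210.2 and 242, while the remaining one was dim.

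No gene of the thioredoxin system differed by more than 1.54-fold, the smallest such limit among the 8 roles. *Txn1*, the cytosolic thioredoxin, had 11961 at day 1, 11544 at day 7 and 11595 at day 56, a range of 1.04-fold. *Txnrd1*, the reductase that renews it, had 3023, 3261 and 3474. The mitochondrial pair *Txn2* (1799.8, 2115 and 2236) and *Txnrd2* (255, 276 and 285) were higher at each later age, within 1.5-fold. *Txnrd3* gave 194, 161 and 248. Among the remaining Nrf2 targets, *Nqo1*, a quinone reductase, was lowest at day 7 (6090.3, 4024 and 5463, ratio to TSPCs-1d 0.66). *Hmox1*, the inducible haem oxygenase, was highest at day 56 (2176, 1958 and 3219, ratio to TSPCs-1d 1.48). *Hmox2*, its constitutive form, gave 484, 478 and 438.

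**Figure D4:**
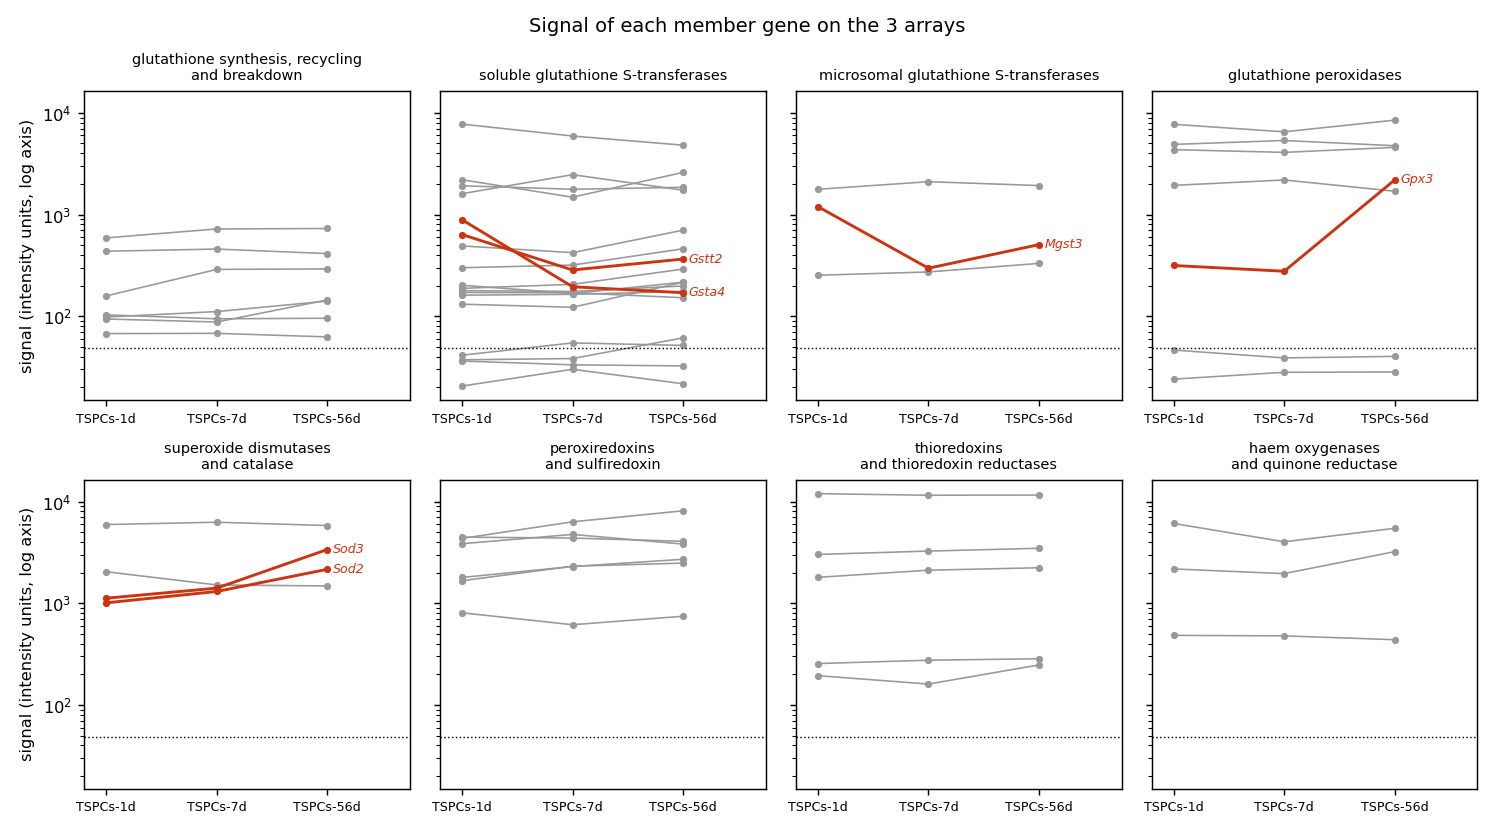
Signal (vertical log axis, intensity units) of each member gene on the arrays of day 1, 7 and 56, 1 panel per role and 1 line per gene, with the genes past 2-fold in red and the dim limit of 48.9 dotted. The lines of most genes are nearly flat, that of *Gpx3* climbs only to TSPCs-56d, and heights of different genes are not comparable.

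The surroundings of the family were described with 8 lists of related genes, 141 of them measured. In TSPCs-7d against TSPCs-1d, 2 (1.42%) were more than 2-fold higher and 0 lower, where 1.87% and 1.08% of all genes were. In TSPCs-7d against TSPCs-56d, 0 were higher and 9 (6.38%) lower (2.1% and 1.72% of all genes), and for TSPCs-56d against TSPCs-1d, 11 (7.8%) were higher and 0 lower (2.0% and 1.77%). The median log2 ratios were 0.02, -0.08 and 0.09 in that order, against 0.01, -0.05 and 0.05 over all probe sets. The counts of these lists were not repeated with the arrays set to a common median, and some ratios lay close to the cutoff. Examples were *Oplah* and *Nox1* (both 2.06, day 56 over day 1), and *Msrb1* (2.01) and *Akr1b8* (2.00), both day 56 over day 7. None of the 10 measured genes of Nrf2 and its regulators passed 2-fold. *Nfe2l2*, which encodes Nrf2, had 2406, 2149 and 2259.5, and *Keap1*, its repressor, 193, 180.1 and 177.

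The supply of NADPH, which powers both reductases, had 14 measured genes, and 1 passed 2-fold, the mitochondrial folate enzyme *Mthfd1l* (97.2, 217 and 124), 2.23-fold higher at day 7 than at day 1. Of the 23 genes of cysteine supply, glutathione turnover and export, 2 were higher at day 56 than at day 1. These were the aminopeptidase *Anpep* (81.3, 135 and 346), which trims the dipeptide left by the gamma-glutamyl transferases, and the oxoprolinase *Oplah* (98.8, 102 and 203), which returns glutamate from oxoproline. *Anpep* was also 2.56-fold lower at day 7 than at day 56. Among the 19 glutaredoxins, thioredoxin-related proteins and methionine sulfoxide reductases, *Txnip*, the thioredoxin inhibitor, had 394 at day 1, 796 at day 7 and 1252 at day 56, 2.02-fold and 3.18-fold above TSPCs-1d. *Msrb1* (2326, 1425 and 2865) was 2.01-fold lower at day 7 than at day 56.

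Of 14 sources of superoxide and hydrogen peroxide, 3 were higher at day 56 than at day 1. The amine oxidase *Aoc3*, which releases hydrogen peroxide, had 675, 807 and 2727 (4.04-fold). Xanthine dehydrogenase *Xdh* was dim in both young cultures and had 203 at day 56, at least 4.16-fold higher than in each. The NADPH oxidase *Nox1* had 58.7, 61.3 and 121 (2.06-fold). Of 15 genes of metallothioneins and of iron and haem handling, *Mt2A* (593, 476 and 1314) was 2.22-fold higher at day 56 than at day 1, and *Mt1* (121, 99.7 and 214) and *Mt2A* were both lower at day 7 than at day 56.

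Of 25 other detoxifying enzymes, 3 were higher at day 56 than on both other arrays. *Ptges*, a membrane enzyme related to the microsomal transferases that makes prostaglandin E2 with glutathione as cofactor, was dim in the young cultures and had 403 at day 56, at least 8.25-fold higher. Its other probe set gave 92.9, 95.9 and 189, a ratio of 2.04 between TSPCs-56d and TSPCs-1d. *Nqo2*, the second quinone reductase, had 69.2, 136 and 301, and the aldo-keto reductase *Akr1b8* had 1305, 1746 and 3501, with a ratio of 2.00 between day 56 and day 7. Of 21 selenoprotein genes, *Selenop*, the secreted selenium carrier, passed 2-fold, with 284, 419 and 740.2 (2.61-fold for TSPCs-56d against TSPCs-1d). Its other probe set was dim on all 3 arrays.

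**Figure D5:**
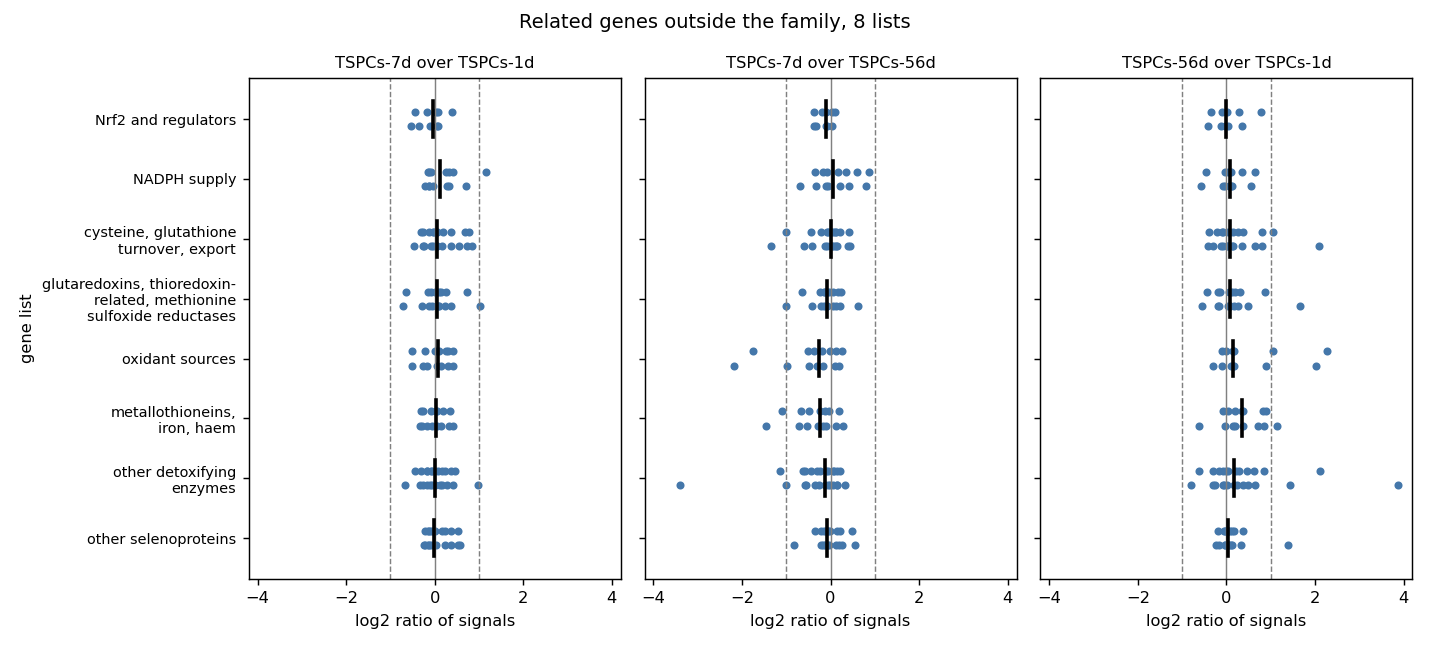
Log2 ratio of signals (horizontal axis) of the genes in 8 related lists (rows), in the 3 comparisons. Each point is a gene, the black bar is the list's median and the dashed lines mark 2-fold. Genes past the lines are on the TSPCs-56d side in the panels with that array, and the Nrf2 list stays inside them.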

How the data were processed

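The authors hybridised biotin-labelled RNA of 3 cultures, 1 per age, to Affymetrix Rat Genome 230 2.0 arrays. MAS5 appears in the submitters' processing notes, MAS5 with RMA in the published methods. The deposited values are linear intensity (lowest 1), used unchanged, so low signals are noisy and the array's scale enters each ratio. The ratio was the main measure, without a test, since there was 1 array per age.

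Of 31042 probe sets, 20826 had 1 gene symbol in GEO's platform annotation, 436 had several and 9780 none. Members and gene lists were chosen with earlier results of these data known. Text values cover all genes past 2-fold, the brightest of each role and core enzymes. For the related lists, at most 4 genes per list and comparison are named. Alternatives were median scaling, quantile normalization, floors, a pseudocount of 32, filters, 1 value per gene and other cutoffs. Simulated arrays with planted changes checked only that the counting code recovers them, not the error of the counts reported here. Python 3.11.15, numpy 2.4.6, pandas 2.3.3 and matplotlib 3.10.9 were used. No protein sequences were used here.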

Additional observations from a re-analysis of the deposited data

How the results depend on the processing

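With 1 array per age the number of arrays limits every statement, and no array could be left out. No paired analysis was possible because each group held 1 array and the labels give no replicate numbers. Of 93 alternative counts and medians over the members, 87 stayed within 1.5 times the count or, for a median, within the median of the noise guide. No median changed sign, though 2 floors brought that of TSPCs-7d against TSPCs-1d to 0. At a cutoff of 1.5-fold, 2 member probe sets were above day 1 at day 7 (*Gclm* and *Gstm5*, 3.33% against 4.1% of all probe sets) and 4 below it (6.67% against 3.57%). At day 7, 0 were above day 56 (4.91% of all) and 11 below it (18.3% against 4.94%). At day 56, 11 were above day 1 (18.3% against 6.39%) and 4 below it (6.67% against 5.01%). *Gstt3*, dim at day 1 and day 7, was among the 11 in both cases, though its lower bound was 1.26-fold. At 3-fold, *Gsta4* and *Mgst3* (2) were below day 1 at day 7 (0.261% of all), *Gpx3* (1) was below day 56 at day 7 (0.448%), *Gpx3* and *Sod3* (2) were above day 1 at day 56 (0.567%) and *Gsta4* (1) was below it (0.583%). Dividing each array by its median left 2 probe sets higher at day 56 than at day 1, without *Sod2*, whose ratio became 1.996. The ratio of *Sod3* became 2.81, under 3-fold. The counts at 1.5-fold and 3-fold were not repeated with this scaling. Some ratios of day 56 over day 1 lay close to 1.5, such as those of *Prdx3* (1.51) and *Gstk1* (1.53). Of 954 alternative values of single genes, 917 moved by less than the median of the noise guide and 37 moved by more. A change of sign was looked for only in ratios past 2-fold, where 0 reversed, and smaller ratios that changed sign were not counted. Some alternatives leave a value unchanged by design, such as the mean over probe sets for a gene with 1 probe set, or a floor for a bright gene.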
